A study of Mus musculus with 13 samples.

Results

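Kcnu1, Lsm1, Bag4, Ddhd2, Letm2, Ash2l and Eif4ebp1 are 7 protein-coding genes that lie near Star on mouse chromosome 8, and Star is the gene that was deleted in the adrenal glands studied here. They were chosen by name as neighbours of Star. The position columns of the deposited tables place all 7 within 1.5 Mb of it, 7 of the 14078 genes listed for every library. Messenger RNA was sequenced from whole adrenal glands of C57BL/6 mice in 3 groups: before TAM (5 libraries), 24 h after TAM (4 libraries) and 8 weeks after TAM (4 libraries). TAM induces the loss of Star, whose protein delivers cholesterol into mitochondria as the first step of steroid making. The labels do not give the Cre driver, the animals' age or how many animals the libraries come from, and p-values therefore measure the spread between libraries, which may be technical. No glands given TAM without the deletion are analysed here, so effects of time, of TAM and of losing Star cannot be told apart.

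The 7 genes share a place rather than a pathway. Kcnu1 is the Slo3 potassium channel of sperm, known for its part in sperm fertility. Lsm1 belongs to the ring of Lsm proteins that promotes decapping and decay of messenger RNA, Bag4 is a co-chaperone of Hsc70 and Hsp70, and Ash2l is a core subunit of the COMPASS complexes that methylate histone H3. Ddhd2 is an intracellular phospholipase and triglyceride lipase best known in brain, Letm2 is a relative of the mitochondrial inner membrane protein Letm1, and Eif4ebp1 encodes the repressor of the cap-binding protein eIF4E that mTORC1 switches off. The human counterparts of this stretch are known as a block amplified in a subset of breast cancers.

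Positions are given as in the deposited tables (mm10, 1-based). Star spans 25808513 to 25816119 on the plus strand. On the side of lower coordinates lie Lsm1 (25785591 to 25803975, plus strand, 4537 bases from Star), Bag4 (25764539 to 25785209, minus strand, 23.3 kb), Ddhd2 (25725324 to 25754280, minus strand, 54.2 kb) and Letm2 (25578490 to 25597487, minus strand, 211.0 kb). On the other side lie Ash2l (25816138 to 25840924, minus strand), Kcnu1 (25849760 to 25938071, plus strand, 33.6 kb) and Eif4ebp1 (27260464 to 27275793, plus strand, 1444.3 kb). Star and Ash2l face each other tail to tail with 18 bases between their ends, Bag4 and Lsm1 start back to back 381 bases apart, and Ash2l and Kcnu1 start back to back 8835 bases apart. Of the genes listed in all tables, Ash2l and then Kcnu1 follow Star on its downstream side. Past Star on chromosome 8, the starts of 485 genes with a single transcript most often differed by 137 bases from RefSeq's GRCm38.p6 (49.1% of them), whereas before Star (88 genes) and on the other chromosomes (10148 genes) the most common difference was 0. Coordinates past Star therefore follow the tables and not the published assembly.

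The level of Star itself was read first, as the sum of its 3 transcript models, 1 named with the deletion and 1 without it. The sum ranged from 3207 to 4239 FPKM (fragments scaled to transcript length and to the library's total) before TAM. It ranged from 17.4 to 626.1 at 24 h and from 85.9 to 201.6 at 8 weeks, and neither later group overlapped the before libraries. The model with the deletion held 462.8, 566.9, 13.1 and 180.5 FPKM in 24 h replicates 1 to 4, and 48.3 to 462.0 before TAM. The model without it held 17.3, 49.3, 3.62 and 14.4 FPKM at 24 h. The sum is therefore not the level of intact Star alone. The third model held most of before replicate 2 (3715 FPKM). Markers of the steroid-making cortex (8 genes) averaged between −0.23 and 0.44 before, between −5.13 and 0.17 at 24 h and between −3.34 and −2.15 at 8 weeks, on a log2 scale relative to the mean of the before libraries. Replicate 3 at 24 h stood apart: it had the lowest summed Star, its cortex markers were at −5.13 and its medulla markers (8 genes) at −6.50. The FPKM of its cortex markers summed to 4355, above the 8-week libraries (1553 to 3740), so only the mean on the log2 scale was lowest. Replicate 4 at 24 h had cortex markers at −0.80 and medulla markers at −4.86. Markers of lipid-laden macrophages were at 2.13 to 3.26 at 24 h and at 3.86 to 4.31 at 8 weeks, and fat-cell markers at −5.60 to 2.16 at 24 h and at 2.34 to 3.85 at 8 weeks. These are whole glands, so fewer cells of a type and less RNA per cell cannot be told apart, and the part of these shifts in the results below was not tested.

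**Figure D1:**
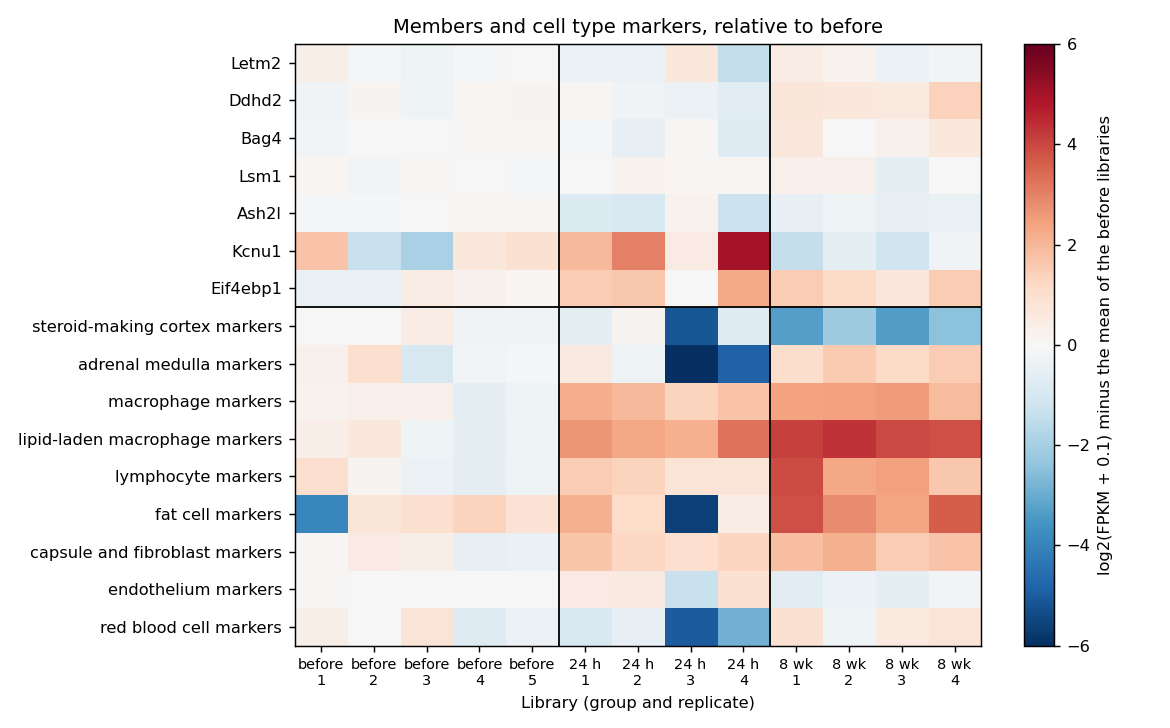
Colour gives log2(FPKM + 0.1) minus the mean of the before libraries, for the 7 genes (upper rows) and for the mean of each marker list (lower rows), in 13 libraries ordered before, 24 h and 8 weeks. Kcnu1 is darkest in 24 h replicate 4, while 24 h replicate 3 carries the lowest log2 means of cortex (−5.13), medulla (−6.50) and fat-cell (−5.60) markers.

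Before TAM the 7 genes stood in the order Eif4ebp1 (26.2 ± 7.08 FPKM), Ash2l (13.8 ± 0.94), Ddhd2 (12.7 ± 1.83), Lsm1 (7.90 ± 0.71), Bag4 (7.24 ± 0.54), Letm2 (2.85 ± 0.49) and Kcnu1 (1.87 ± 1.64; SD, n = 5 each). The libraries of Ash2l and Ddhd2, of Lsm1 and Bag4, and of Letm2 and Kcnu1 overlapped, so these neighbours in the order were not separated by their spread. The other steps, at Eif4ebp1 over Ash2l, Ddhd2 over Lsm1 and Bag4 over Letm2, did not overlap. All 7 were far below Star, whose level before TAM was 3797 ± 399 FPKM.

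Of the 7 genes, 3 were called higher and 0 lower at 8 weeks against before, where 36.9% of all 14078 genes were called (20.5% higher and 16.4% lower). At 24 h against before, 2 were called higher and 0 lower, where 19.2% of all genes were called (12.6% higher and 6.63% lower). At 8 weeks against 24 h, 2 were called higher and 1 lower, where 20.8% were called (10.1% higher and 10.6% lower). A gene was called at an adjusted p under 0.05 in edgeR's quasi-likelihood test over all genes, and every adjusted p below comes from that test unless another is named. The genes were picked with results of these data known, so the calls describe these libraries and nothing is read from their number. Without 24 h replicate 3, the counts were 3 higher and 1 lower at 8 weeks against before, 2 higher and 1 lower at 24 h against before, and 2 higher and 1 lower at 8 weeks against 24 h. The gene added in the first 2 comparisons was Ash2l. At 24 h against before, 1 was called higher and 0 lower without 24 h replicates 3 and 4. The 3 comparisons share libraries with each other. The 4 genes not called at 8 weeks against before were Ash2l, Kcnu1, Letm2 and Lsm1, and no gene of the 7 was called in all 3 comparisons. For Ash2l these counts rest on the 1 of its 2 transcript models listed for every library. With 8 weeks and before alone in the fit, Ash2l was called lower on that model (log2 −0.78, adjusted p = 0.035). It was called lower there on both models too (log2 −0.39, adjusted p = 0.0055).

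**Figure D2:**
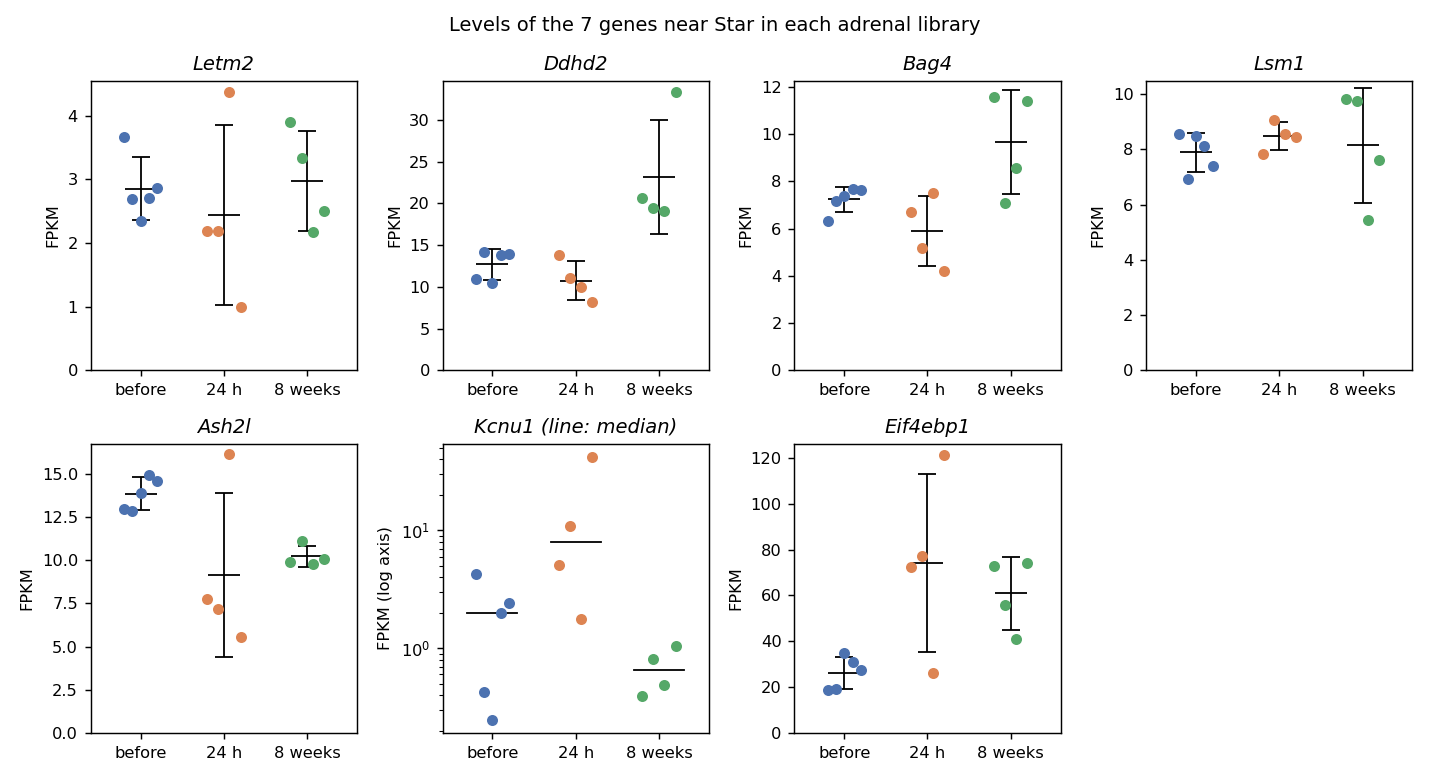
FPKM of each gene in every library, before, at 24 h and at 8 weeks, as points; bars are the mean ± SD except for Kcnu1, drawn on a log axis with the median. For Ash2l both transcript models are summed before and at 8 weeks, and the 24 h table lists 1 model. Kcnu1 reaches 42.0 FPKM in a single 24 h library, Ddhd2 at 8 weeks lies above all other libraries (19.1 FPKM or more), and Lsm1 spans 5.43 to 9.83 FPKM over all groups.

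Kcnu1, the channel gene past Ash2l on the downstream side of Star, had the widest spread of the 7. Before TAM it measured 4.27, 0.426, 0.248, 1.99 and 2.41 FPKM in replicates 1 to 5. At 24 h it measured 5.05, 10.9, 1.79 and 42.0 FPKM in replicates 1 to 4, and at 8 weeks 0.396, 0.814, 0.491 and 1.04 FPKM. At 24 h replicates 1, 2 and 4 lay above every before library, and replicate 3 lay among the before libraries. All 4 libraries from 8 weeks lay below all 4 from 24 h and within the range from before. In counts, Kcnu1 had 198 to 3283 reads at 24 h and 38 to 71 reads at 8 weeks. The largest level was 17.2 times the smallest among the before libraries and 23.5 times among the 24 h libraries, against 2.64 times among the 8-week libraries.

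The log2 fold change of Kcnu1 was 3.10 at 24 h against before (SE 0.91, adjusted p = 0.031), −1.32 at 8 weeks against before (SE 0.93, adjusted p = 0.28) and −4.42 at 8 weeks against 24 h (SE 1.06, adjusted p = 0.015). The rise at 24 h rested on replicate 4: it was 1.71 in log2 (adjusted p = 0.17) when that library was left out. It also lost its call without any 1 of before replicates 2 to 5 (adjusted p from 0.052 to 0.065), and stood at 3.51 (adjusted p = 0.0080) without 24 h replicate 3 and at 2.16 (adjusted p = 0.073) without 24 h replicates 3 and 4. The difference between 8 weeks and 24 h was called in all 21 alternatives, between −4.86 and −3.05. In the authors' deposited table, which compares 8 weeks with before, Kcnu1 had a log2 ratio of −0.87 and a q-value of 0.48.

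Kcnu1 and Star, its 3 models summed, were set side by side in each library. Kcnu1 FPKM came to 0.00585% to 0.133% of Star FPKM before TAM, to 1.04%, 1.74%, 10.3% and 20.2% in 24 h replicates 1 to 4, and to 0.315% to 0.609% at 8 weeks. Replicate 3 at 24 h had its 10.3% at a Star level of 17.4 FPKM and a Kcnu1 level inside the before range. In replicate 4, Kcnu1 was at 42.0 FPKM beside 208.0 FPKM of Star. At 8 weeks every library had less summed Star than 24 h replicate 4, and Kcnu1 did not exceed 1.04 FPKM. In the Star model named without the deletion, taken alone, the order was the other way. That model measured 14.4 FPKM in 24 h replicate 4 and 23.6 to 139.9 FPKM at 8 weeks.

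**Figure D3:**
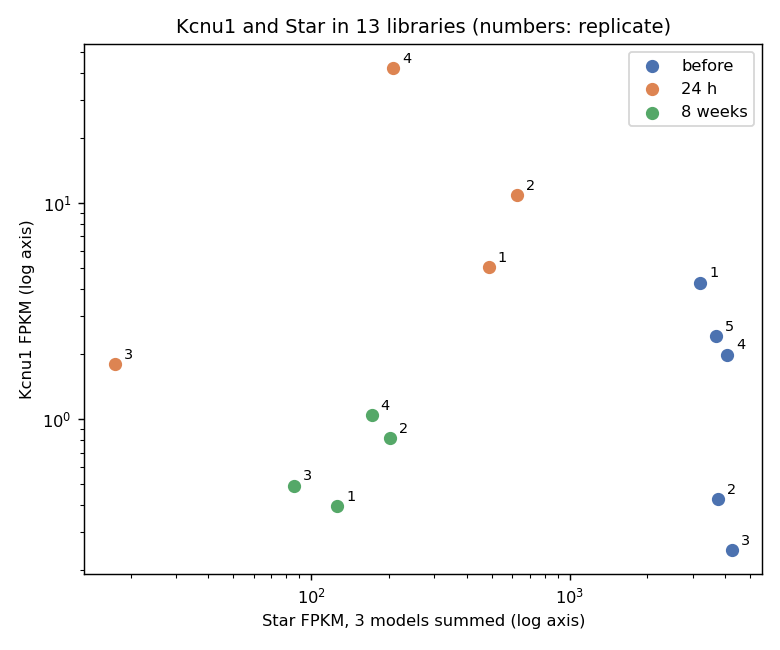
Kcnu1 FPKM (y, log axis) against Star FPKM with its 3 transcript models summed (x, log axis) in 13 libraries, numbered by replicate. The before libraries lie at 3207 to 4239 FPKM of Star, the 8-week libraries lie at 85.9 to 201.6, and 24 h replicate 4 is highest in Kcnu1 at 42.0 FPKM.

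Kcnu1 is known from sperm, and 0 of 8 male germ cell markers (among them protamines and transition proteins) were listed in any of the tables. A gene that is not listed has no level here, so this is not a measured absence. Of the other Slo family channels and the Slo3 partner Lrrc52, Kcnma1, Kcnt1 and Kcnt2 were listed. Kcnma1, the large-conductance calcium-activated potassium channel, fell to 3.14 ± 0.90 FPKM at 8 weeks (n = 4), against 12.6 ± 1.86 before (n = 5), a log2 fold change of −1.88 (SE 0.19, adjusted p = 2e-05). Kcnt2, a sodium-activated potassium channel, rose to 1.57 ± 0.37 FPKM at 8 weeks, against 0.473 ± 0.149 before (log2 1.87, SE 0.51, adjusted p = 0.012). At 24 h against before Kcnt2 was the 1 gene called of these 3 (log2 1.92, adjusted p = 0.019), and it was not called without 24 h replicates 3 and 4 (0.93, adjusted p = 0.065), by limma (adjusted p = 0.060) or under the replicate block (adjusted p = 0.14). The median of the 3 at 24 h was 0.66 with all libraries and −0.29 without 24 h replicate 3. By likeness of pattern over the 13 libraries, the genes nearest to Kcnu1 were Mmp13 (a collagenase), I830012O16Rik and Ifi44 (an interferon-induced gene). Their root mean square differences from it were 0.84, 1.02 and 1.02 on the centred log2(CPM + 1) scale, against a median of 1.84 over 5032 candidates of similar level. Mmp13 measured 1.83 ± 0.85 FPKM before, 10.1 ± 6.38 at 24 h and 1.57 ± 0.15 at 8 weeks.

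Ash2l, the COMPASS subunit gene whose end lies 18 bases from that of Star, is split into models in the tables. The model NM_011791, listed for every library, measured 11.8, 12.8, 13.9, 14.5 and 14.6 FPKM before TAM, 7.76, 7.18, 16.1 and 5.53 at 24 h, and 3.48, 6.59, 9.30 and 9.75 at 8 weeks. All 8-week libraries lay below all before libraries, as did the 24 h libraries other than replicate 3, which was above them all. On this model the log2 fold change was −0.75 at 8 weeks against before (SE 0.32, adjusted p = 0.080) and −0.57 at 24 h against before (SE 0.31, adjusted p = 0.23). Without 24 h replicate 3, the value at 24 h was −0.91 (adjusted p = 0.032) and the value at 8 weeks −0.78 (adjusted p = 0.025). The difference between 8 weeks and 24 h was −0.18 (SE 0.33, adjusted p = 0.73), and turned to 0.13 without 24 h replicate 3 and to 0.06 without 8-week replicate 1. This sets a single model at 8 weeks against the only one listed at 24 h. In 8-week replicates 1 and 2, 64.9% and 40.8% of Ash2l FPKM lay in the other model. Both models averaged 10.2 FPKM at 8 weeks, against 9.15 at 24 h, so the sign of this difference is not settled.

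The other model, NM_001286207, is listed in the before and 8-week tables. It measured 1.15, 0, 0, 0.424 and 0 FPKM before and 6.42, 4.54, 0.468 and 0.328 FPKM at 8 weeks, so replicates 1 and 2 at 8 weeks were high and the others lay within the before range. Its share of Ash2l FPKM was 28.4 ± 29.9% at 8 weeks (n = 4), against 2.35 ± 3.86% before (n = 5), a difference that a two-sided exact permutation test did not separate (p = 0.11, smallest possible 0.016, and 0.11 after Benjamini-Hochberg adjustment over 2 Ash2l tests). With 1 library left out the difference lay between 13.9 percentage points (exact permutation p = 0.25, without 8-week replicate 1) and 34.5 (p = 0.071, without 8-week replicate 4). It was 21.96 without 8-week replicate 2 (exact permutation p = 0.25), and the p passed the threshold only without before replicate 1 (27.7 points, exact permutation p = 0.029, unadjusted). Summed over both models, Ash2l measured 9.90, 11.1, 9.77 and 10.1 FPKM at 8 weeks, against 12.97, 12.8, 13.9, 14.9 and 14.6 FPKM before. The summed level averaged 10.2 ± 0.62 FPKM at 8 weeks and 13.8 ± 0.94 FPKM before, with no overlap (exact permutation p = 0.016, the smallest this design allows, adjusted p = 0.032 over the same 2 tests). With only these groups and all their transcripts in the fit, the log2 fold change was −0.39 (adjusted p = 0.0055). Reads common to both models are assigned by estimate. This bears on the share and on the fold changes of NM_011791 alone, and not on the sum. In the authors' deposited table NM_011791 had a q-value of 0.041 with a negative log2 ratio and NM_001286207 had 8.72 (q = 0.10), which rests on a pseudocount of 0.0001 for the libraries at 0.

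**Figure D4:**
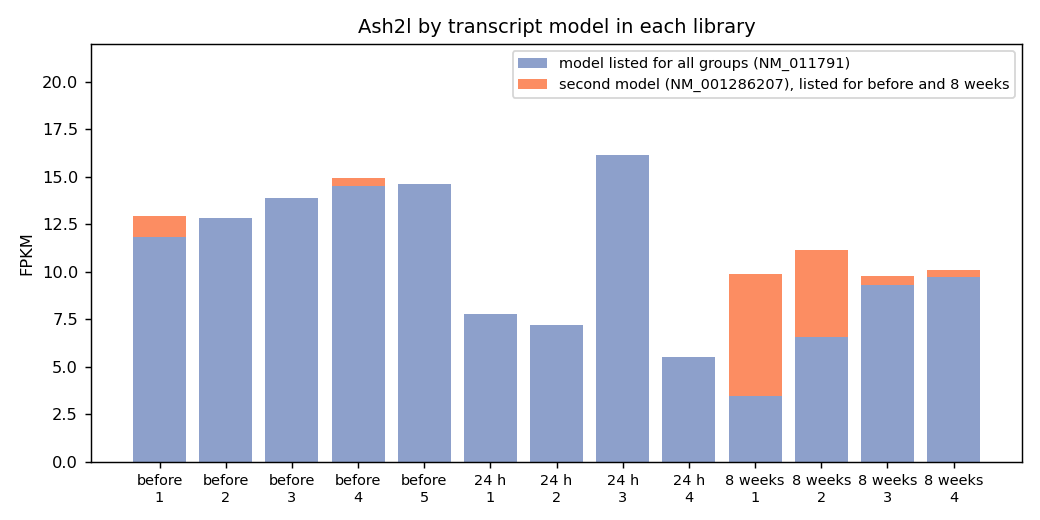
FPKM of Ash2l in each library as stacked bars, NM_011791 below and NM_001286207 above, by group and replicate. The sum lies at 9.77 to 11.1 FPKM at 8 weeks, against 12.8 to 14.9 before, and the upper model is largest in 8-week replicates 1 and 2 (6.42 and 4.54 FPKM); the 24 h table lists the lower model alone.

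Of 12 other COMPASS genes, 7 fell at 8 weeks against before and 0 rose, with a median log2 fold change of −0.43, where the median of all genes was 0.03. That is 58.3% called, where 36.9% of all genes were called and 16.4% were called lower. Hcfc1, a cell-cycle co-factor of the SET1 complexes, averaged 9.08 ± 0.70 FPKM at 8 weeks and 15.3 ± 1.85 before (log2 −0.62, SE 0.14, adjusted p = 0.0042). The methyltransferase Kmt2b (log2 −0.74, SE 0.20, adjusted p = 0.011) and the core subunit Wdr5 (log2 −0.52, SE 0.16, adjusted p = 0.019) fell too. Kmt2d, another methyltransferase, was called at −0.63 (adjusted p = 0.015) and not called without 8-week replicate 2 (adjusted p = 0.0503). At 24 h against before 0 of the 12 were called in edgeR, 0 had an unadjusted p under 0.05, and DESeq2 and limma called 0. With 24 h replicate 3 left out, 1 of the 12 was called lower. The genes nearest in pattern to Ash2l were Crtc1, Bcl9l and Bahcc1, at root mean square differences of 0.19, 0.24 and 0.25, against a median of 0.65 over 5568 candidates. This pattern is that of NM_011791 alone, so it depends on how reads were split between the models.

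On the other side of Star, Lsm1 had the smallest spread of the 7 over all 13 libraries (coefficient of variation 14.4%). It was not the smallest in 2 of the groups: at 8 weeks the coefficient was 6.08% for Ash2l, 22.9% for Bag4 and 25.5% for Lsm1, and before TAM it was 6.82% for Ash2l, 7.52% for Bag4 and 8.94% for Lsm1. It measured 8.56, 6.94, 8.48, 8.12 and 7.40 FPKM before TAM, 7.83, 9.05, 8.57 and 8.45 at 24 h, and 9.83, 9.74, 5.43 and 7.63 at 8 weeks. The groups overlapped throughout, and 8-week replicate 3 was the lowest library of all. The log2 fold change was 0.16 at 8 weeks against before (SE 0.16, adjusted p = 0.44) and 0.12 at 24 h against before (SE 0.16, adjusted p = 0.64). Between 8 weeks and 24 h it was 0.04 (SE 0.17, adjusted p = 0.88), which turned negative in 10 of 21 alternatives, without a scaling factor among them. The difference from before was not called at either time in any alternative.

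Of 15 partner genes of Lsm1, the other ring subunits and decapping factors, 4 fell and 1 rose at 8 weeks against before (median log2 −0.16). That is 33.3% called, near the 36.9% of all genes. Dcp2, the decapping enzyme, averaged 3.39 ± 0.36 FPKM at 8 weeks and 6.03 ± 1.37 before (log2 −0.70, SE 0.18, adjusted p = 0.010). Its call was lost under the replicate block (adjusted p = 0.058). Edc4, a decapping scaffold, was called at −0.49 (adjusted p = 0.022), and not without 8-week replicate 1 or 2 (adjusted p at most 0.066). Dcp1a, an activator of decapping, was called at −0.54 (adjusted p = 0.037), and not without any 1 of before replicates 1 to 3 and 8-week replicates 1 to 3 or under the replicate block (adjusted p at most 0.098). Lsm3, a ring subunit, was called higher at 0.76 (adjusted p = 0.019). It was not called without a scaling factor, by limma or without any 1 of before replicate 4 and 8-week replicates 1 and 2 (adjusted p at most 0.067). Of the 15, 1 was called at 24 h against before, the decay factor Patl1 (log2 0.51, adjusted p = 0.016), and 0 without 24 h replicates 3 and 4. Fam188a, Rdh14 and Cox11 were nearest to Lsm1 in pattern, at root mean square differences of 0.092, 0.094 and 0.10, against a median of 0.45 over 4951 candidates.

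Bag4, which starts back to back with Lsm1, was higher at 8 weeks than at 24 h. It measured 6.34, 7.16, 7.38, 7.68 and 7.63 FPKM before TAM, 6.72, 5.19, 7.50 and 4.21 at 24 h, and 11.6, 7.07, 8.57 and 11.4 at 8 weeks. At 8 weeks replicates 1, 3 and 4 lay above all before libraries, and replicate 2 lay among the before and 24 h libraries. The log2 fold change was 0.55 at 8 weeks against before (SE 0.17, adjusted p = 0.025), −0.28 at 24 h against before (SE 0.18, adjusted p = 0.29) and 0.84 at 8 weeks against 24 h (SE 0.19, adjusted p = 0.011). The call at 8 weeks against before was lost without 8-week replicate 1 (0.46, adjusted p = 0.081) or replicate 4 (0.48, adjusted p = 0.075), without before replicate 1, 2 or 4 (adjusted p from 0.051 to 0.061), and when no scaling factor was used (0.42, adjusted p = 0.10). The call at 8 weeks against 24 h held without any 1 library, and was lost with only these groups in the fit (0.78, adjusted p = 0.065). In the authors' deposited table Bag4 had a log2 ratio of 0.39 and a q-value of 0.097.

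Of 8 other BAG co-chaperone and Hsp70 genes, 5 fell and 0 rose at 8 weeks against before (median log2 −0.68). That is 62.5% called, where 36.9% of all genes were called and 16.4% were called lower. Bag6, a co-chaperone of misfolded and tail-anchored proteins, averaged 38.2 ± 7.14 FPKM at 8 weeks and 65.8 ± 4.95 before (log2 −0.65, SE 0.14, adjusted p = 0.0035). Bag2, an inhibitor of the CHIP ubiquitin ligase, had a log2 fold change of −0.71 (SE 0.17, adjusted p = 0.0063). The heat shock genes Hspa1b (log2 −1.48, adjusted p = 0.0020) and Hspa1a (log2 −1.21, adjusted p = 0.0099) fell as well, and as near-identical copies they share reads. Bag3, a co-chaperone of selective autophagy, was called at −0.95 (adjusted p = 0.025) and not in 6 of 22 alternatives, 5 of them with 1 library left out (adjusted p at most 0.073). Of the 8, 0 were called at 24 h against before in edgeR, DESeq2 or limma, and 0 had an unadjusted p under 0.05. The genes nearest in pattern to Bag4 were Txlng, Dgkd and Cab39l, at root mean square differences of 0.14, 0.18 and 0.18, against a median of 0.55 over 5600 candidates.

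Ddhd2, the lipase gene, rose at 8 weeks in every library. It measured 10.9, 14.2, 10.5, 13.9 and 13.99 FPKM before TAM, 13.8, 11.02, 9.97 and 8.16 at 24 h, and 20.7, 19.4, 19.1 and 33.4 at 8 weeks. The 8-week libraries lay above all others, with replicate 4 the highest, and the 24 h libraries overlapped those from before. The log2 fold change was 1.00 at 8 weeks against before (SE 0.19, adjusted p = 0.0014), −0.22 at 24 h against before (SE 0.19, adjusted p = 0.46) and 1.22 at 8 weeks against 24 h (SE 0.20, adjusted p = 0.0036). Both differences of 8 weeks were called in all alternatives, from 0.79 to 1.10 against before and from 0.95 to 1.37 against 24 h. Without 8-week replicate 4 the value against before was 0.79 (adjusted p = 0.0037), the lowest of these. Without 24 h replicates 3 and 4 the value at 24 h against before was 0.01. In the authors' deposited table Ddhd2 had a log2 ratio of 0.84 and a q-value of 0.017. Over the same libraries, fat-cell markers were at 2.34 to 3.85 at 8 weeks, with replicates 1 and 4 the highest (3.85 and 3.61), and their part in the level of Ddhd2 was not tested.

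Among 5 genes related to Ddhd2, its closest relative Ddhd1 rose to 19.7 ± 2.37 FPKM at 8 weeks, against 5.08 ± 1.30 before (log2 2.09, SE 0.23, adjusted p = 3.2e-05). Lpin1, a phosphatidate phosphatase of triglyceride synthesis, rose to 27.2 ± 8.31 FPKM, against 9.99 ± 2.57 before (log2 1.57, SE 0.27, adjusted p = 0.00067). Lpin3, its relative, fell to 3.46 ± 1.15 FPKM, against 24.8 ± 3.29 before (log2 −2.72, SE 0.50, adjusted p = 0.0012). These 3 were the genes called of the 5 (60%, where 36.9% of all genes were called), and each was called in all 22 alternatives. At 24 h against before 1 of the 5 was called, Ddhd1 (log2 0.78, adjusted p = 0.029). This call was lost in 9 of 21 alternatives (adjusted p at most 0.12 in any). Among them were no scaling factor, the replicate block, limma, only the groups compared and leaving out 24 h replicates 3 and 4. It was also lost without 24 h replicate 1 and without before replicate 3, 4 or 5. Pdk2, Pfkl and Vegfb were nearest to Ddhd2 in pattern, at root mean square differences of 0.12, 0.17 and 0.17, against a median of 0.70 over 4822 candidates. Pdk2, a kinase that inhibits pyruvate dehydrogenase, measured 28.9 ± 4.796 FPKM before, 23.9 ± 6.53 at 24 h and 54.5 ± 16.6 at 8 weeks.

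Letm2, the farthest of the 7 on this side, was low and was not called in any comparison. It measured 3.66, 2.69, 2.35, 2.70 and 2.86 FPKM before TAM, 2.19, 2.19, 4.37 and 0.990 at 24 h, and 3.89, 3.33, 2.171 and 2.496 at 8 weeks. The 24 h libraries held both the highest and the lowest value, in replicates 3 and 4, from 288 and 46 reads. The log2 fold change was 0.18 at 8 weeks against before (SE 0.32, adjusted p = 0.68), −0.24 at 24 h against before (SE 0.32, adjusted p = 0.66) and 0.42 at 8 weeks against 24 h (SE 0.34, adjusted p = 0.39). Without 24 h replicate 3 the value at 24 h against before was −0.60 (adjusted p = 0.13).

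Of 7 genes of Letm relatives and mitochondrial calcium transport, 2 rose and 2 fell at 8 weeks against before, or 57.1% called, where 36.9% of all genes were called. Mcu, the pore of the mitochondrial calcium uniporter, averaged 5.91 ± 0.76 FPKM at 8 weeks and 16.3 ± 2.25 before (log2 −1.34, SE 0.14, adjusted p = 2.5e-05). Mcu was also lower at 24 h than before (log2 −0.70, adjusted p = 0.0038) and lower at 8 weeks than at 24 h (log2 −0.63, adjusted p = 0.013). Letmd1, a mitochondrial protein of the same domain family, rose at 8 weeks against before (log2 1.06, SE 0.27, adjusted p = 0.0092). The other rise, of the mitochondrial sodium-calcium exchanger Slc8b1 (log2 0.95, adjusted p = 0.045), lost its call in 12 of 22 alternatives, 9 of them with 1 library left out, and was 0.57 (adjusted p = 0.19) without 8-week replicate 3. Zfp54, Rbm4b and Rpp40 were nearest to Letm2 in pattern, at root mean square differences of 0.13, 0.14 and 0.15, against a median of 0.66 over 2806 candidates.

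Eif4ebp1, the translation repressor gene at the far end of the stretch, was higher at both later times. It measured 18.7, 19.1, 34.7, 30.8 and 27.4 FPKM before TAM, 72.5, 77.3, 25.97 and 121.1 at 24 h, and 72.8, 55.6, 40.9 and 74.0 at 8 weeks. All 8-week libraries lay above all before libraries, as did the 24 h libraries other than replicate 3, which lay among those from before. The log2 fold change was 1.34 at 8 weeks against before (SE 0.37, adjusted p = 0.013), 1.56 at 24 h against before (SE 0.37, adjusted p = 0.011) and −0.22 at 8 weeks against 24 h (SE 0.39, adjusted p = 0.71). Without 24 h replicate 3 the value at 24 h was 1.87 (adjusted p = 0.00038), and without replicate 4 it was 1.17 (adjusted p = 0.043). Without 24 h replicate 4 the difference between 8 weeks and 24 h turned to 0.12. In the authors' deposited table Eif4ebp1 had a log2 ratio of 1.22 and a q-value of 0.013.

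Of 14 other genes of mTORC1 and the cap-binding complex, 4 fell and 1 rose at 8 weeks against before (median log2 −0.28). That is 35.7% called, near the 36.9% of all genes. Rptor, the scaffold of mTORC1, averaged 4.59 ± 1.38 FPKM at 8 weeks and 9.57 ± 0.98 before (log2 −0.91, SE 0.23, adjusted p = 0.0082). Mlst8, another mTORC1 subunit (log2 −0.70, SE 0.16, adjusted p = 0.0041), and Eif4g3, a cap-binding scaffold (log2 −0.69, SE 0.19, adjusted p = 0.013), fell too. The rise was that of Rheb, the GTPase that activates mTORC1 (log2 0.47, adjusted p = 0.029). It lost its call in 9 of 22 alternatives, among them no scaling factor and any 1 of before replicates 2 to 5 and 8-week replicates 1 and 2 left out (adjusted p at most 0.16 in all). The count of falls was 8 without a scaling factor, 7 without 24 h replicate 3 and 8 without 24 h replicates 3 and 4. Of the 14, 2 fell at 24 h against before, and 0 were called without 24 h replicates 3 and 4. The genes nearest in pattern to Eif4ebp1 were Klf4, Atf5 and Asns, at root mean square differences of 0.24, 0.26 and 0.30, against a median of 0.94 over 5339 candidates. Atf5 and Asns, known as stress-response genes under ATF4 as Eif4ebp1 is, averaged 39.4 ± 18.2 and 49.0 ± 23.7 FPKM at 24 h, with their lowest 24 h libraries at 13.4 and 13.9 FPKM.

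The 7 genes were then set in their stretch of chromosome. Within 1.5 Mb of Star on either side 30 genes other than Star were listed for every library, and the 23 that are not among the 7 were found by position alone. At 8 weeks against before, 9 of the 30 (30%) were called, 4 higher and 5 lower, where 36.9% of all genes were called. At 24 h against before, 7 of the 30 (23.3%) were called, 4 higher and 3 lower, where 19.2% were called. At 8 weeks against 24 h, 6 of the 30 (20%) were called, 4 higher and 2 lower, where 20.8% were called. Without 24 h replicate 3 the counts were 16 (53.3%) at 8 weeks against before and 10 (33.3%) at 8 weeks against 24 h, where 47.6% and 30.5% of all genes were called in the same fits. Without 8-week replicate 2 the count at 8 weeks against 24 h was 3 (10%), where 12.8% of all genes were called. Without a scaling factor, calls over all genes at 8 weeks against before split into 2424 higher and 3054 lower, against 2882 higher and 2311 lower with it, and at 8 weeks against 24 h into 1181 higher and 2093 lower, against 1428 higher and 1495 lower. The median of all genes moved by −0.13 without scaling at 8 weeks against before. The median log2 fold change of the 30 genes was 0.01 at 8 weeks against before, −0.03 at 24 h against before and −0.10 at 8 weeks against 24 h, and that of all genes was 0.03, 0.03 and −0.03.

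**Figure D5:**
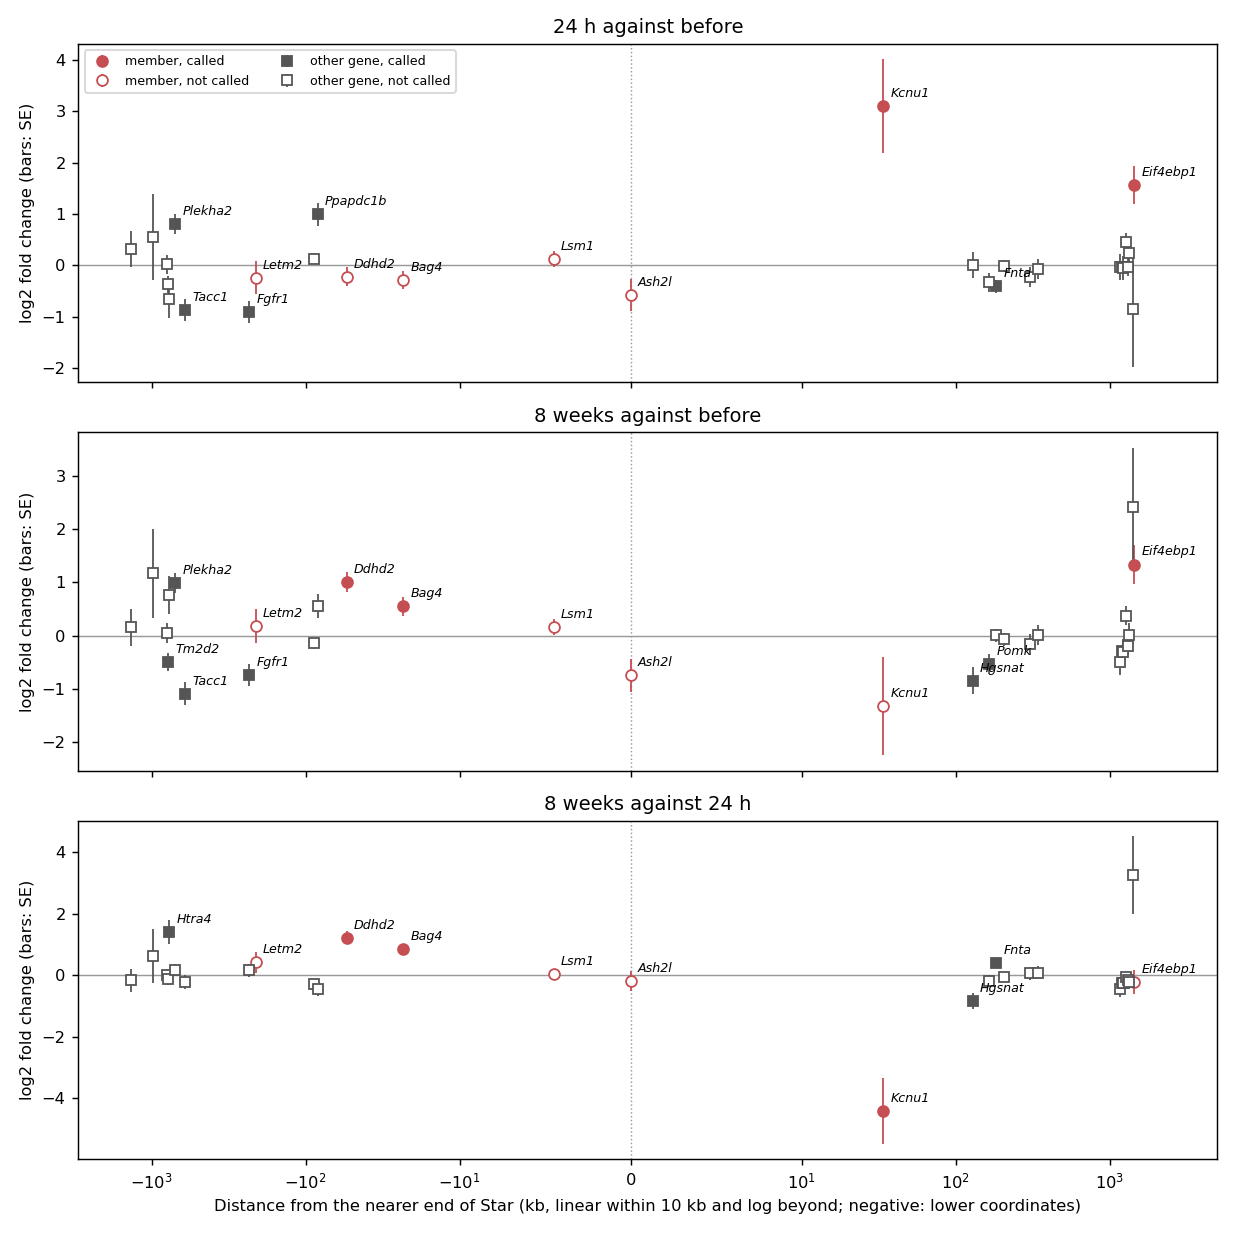
log2 fold change with its SE of the 30 genes within 1.5 Mb of Star against their distance from it in kb, for 24 h against before, 8 weeks against before and 8 weeks against 24 h; circles are the 7 genes, squares the other 23, and filled symbols are called. Called genes lie on both sides of Star, and Kcnu1 has the largest shift at 24 h (3.10), beside Ash2l at −0.57 and Lsm1 at 0.12.

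Among the 23, Plekha2, a phosphoinositide-binding protein, was higher at both later times (log2 0.98 at 8 weeks and 0.81 at 24 h against before, adjusted p = 0.0015 and 0.0098). The centrosomal gene Tacc1 (log2 −1.09 and −0.87, adjusted p = 0.0016 and 0.012) and the growth factor receptor Fgfr1 (log2 −0.74 and −0.90, adjusted p = 0.015 and 0.010) were lower at 8 weeks and at 24 h against before. Each of these calls held in all alternatives. Ppapdc1b, a lipid phosphatase whose end lies 436 bases from that of Ddhd2, averaged 23.7 ± 7.10 FPKM at 24 h and 12.2 ± 1.36 before (log2 0.99, adjusted p = 0.0088). At 8 weeks against before Ppapdc1b was not called (log2 0.55, adjusted p = 0.072), and Ddhd2 was.

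Past Kcnu1 the next gene is Hgsnat, a lysosomal acetyltransferase, whose end lies 6524 bases from that of Kcnu1. Hgsnat averaged 54.7 ± 6.75 FPKM before, 53.3 ± 18.5 at 24 h and 27.7 ± 4.91 at 8 weeks. It was lower at 8 weeks than before (log2 −0.85, adjusted p = 0.019), a call lost without 8-week replicate 1 (adjusted p = 0.063) and under the replicate block. Hgsnat was also lower at 8 weeks than at 24 h (log2 −0.85, adjusted p = 0.039), a call lost in 9 of 21 alternatives. Pomk (log2 −0.53), Tm2d2 (log2 −0.50) and, at 24 h, Fnta (log2 −0.41) were called lower than before, and each call was lost without any 1 of 5 or more libraries. At 8 weeks against 24 h Htra4 was called higher (log2 1.41, adjusted p = 0.024) and so was Fnta (log2 0.41, adjusted p = 0.042). Htra4 was lost without 8-week replicate 2 and with only these groups in the fit, and Fnta in 15 of 21 alternatives.

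Adrb3, the beta-adrenergic receptor of fat cells, is the listed gene next to Eif4ebp1 and is named after its values were seen. It averaged 38.9 ± 15.0 FPKM at 8 weeks, against 7.98 ± 7.71 before, with no overlap and no call (log2 2.41, SE 1.12, adjusted p = 0.11). Fat-cell markers were at 2.34 to 3.85 at 8 weeks and at −3.91 to 1.35 before, and their part in the level of Adrb3 was not tested. Eif4ebp1 was not called higher at 8 weeks than at 24 h, where Adrb3 had a log2 difference of 3.26 (adjusted p = 0.081).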

How the data were processed

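Adrenal RNA was prepared with a kit that keeps strand, per the labels' protocols. The submitters' processing notes name bcl2fastq 2.17, TopHat2 2.0.14 and the build mm10 (GRCm38). The authors deposited FPKM and an expected count, often not a whole number, for the listed RefSeq transcripts of each library, per the file headers. They also deposited a table comparing 8 weeks with before in log2 values, p-values and q-values, per the file headers. No source used here says whether counting used strand. Listed reads ranged from 17331673 to 27309429 per library, which is 86.5% to 93.0% of the library totals that FPKM implies. The before and 8-week tables list 19655 transcripts, of which the 24 h table shares 18738 among its own 19191 entries, so the fit of all libraries covers 14078 genes. FPKM values are not scaled between libraries beyond their totals.

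Expected counts of shared transcripts were summed per gene, rounded to whole numbers and fitted with edgeR 4.0.16 (quasi-likelihood test, TMM scaling, filterByExpr, all 13 libraries, no block) in R 4.3.3, with Benjamini-Hochberg adjustment over all genes and a threshold of 0.05. Standard errors are the fold change over the root of F. The script was tested on simulated data drawn with the spread of the before libraries. That test does not cover a wider spread in the other groups. The Ash2l share and summed level were compared by a two-sided exact permutation test over libraries. Marker levels are means of log2(FPKM + 0.1) relative to before. Alternatives were DESeq2 1.42.0, limma 3.58.1 on log2(FPKM + 0.1), other scalings, filters, windows and sample sets, and each library left out.

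The members, the 7 partner lists and the 10 marker lists were chosen with earlier results of these data known. Named besides the 7 genes and Star are called genes within 1.5 Mb and those nearest Star, at most 4 called genes per partner list by p, and the 3 genes nearest in pattern among those with a mean CPM of 0.5 to 2 times the member's. A called gene of 1 partner list is not reported here.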

Additional observations from a re-analysis of the deposited data

Results flagged for a closer look

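Ddhd2 in 8-week replicate 4 lay far from the other libraries of its group. It measured 33.4 FPKM and the next highest library 20.7 FPKM, a gap that took 0.8903 of the group's range, which is above Dixon's critical value for 4 samples. This was the single library past that value among 21 groups checked, and chance gives about 1 in 20 groups.

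The change from before differed between 8 weeks and 24 h for 3 of the 7 genes, tested as 8 weeks against 24 h with edgeR's quasi-likelihood test. The difference was −4.423 for Kcnu1 (log2, adjusted p = 0.015), with all 4 libraries from 8 weeks below all 4 from 24 h. It was 0.8364 for Bag4 (log2, adjusted p = 0.011), with 8-week replicate 2 inside the range at 24 h. It was 1.22 for Ddhd2 (log2, adjusted p = 0.0036), with all 4 libraries from 8 weeks above all 4 from 24 h.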

How the results depend on the processing

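The 7 genes and Star were refitted under 21 or 22 alternatives in each comparison. Among these, the fit without the filter on low counts repeats the main fit, because that filter removed no gene. Ddhd2 and Eif4ebp1 at 8 weeks against before, and Kcnu1 and Ddhd2 at 8 weeks against 24 h, were called in every alternative. Kcnu1 at 24 h against before lost its call in 9 of 21 and Bag4 at 8 weeks against before in 8 of 22, including limma (adjusted p = 0.052 and 0.13). Ash2l at 8 weeks against before gained a call in 7 of 22 (adjusted p from 0.0055 to 0.19 over all). Signs turned in uncalled differences only, and the cause was not tested. Without 24 h replicates 3 and 4, Ddhd2 at 24 h against before was 0.012 and Ash2l at 8 weeks against 24 h 0.031. Ash2l ranged from −0.38 to 0.13, Eif4ebp1 from −0.57 to 0.12 and Lsm1 from −0.061 to 0.16 at 8 weeks against 24 h with 1 library left out. Lsm1 was −0.040 without a scaling factor, −0.013 with only the groups compared, −0.0067 without 24 h replicates 3 and 4, and −0.091 by limma. Of 63 calls of other named genes, 32 held in all alternatives and 0 turned sign.

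Of all genes at 8 weeks against before, 7895 were called with only these groups and all their transcripts. At 8 weeks against 24 h, 973 were called with only these groups. Of the 30 neighbours at 8 weeks against before, 16 were called with only these groups, 16 with all their transcripts too, 16 without 24 h replicates 3 and 4, and 5 of 15 within 0.5 Mb. Within 0.5 Mb 4 were called at 24 h against before. With only 8 weeks and 24 h in the fit, 2 of the 30 were called between them. With 1 library left out, all-gene counts ranged from 4153 to 6706, from 1851 to 3998 and from 1782 to 4300 (8 weeks against before, 24 h against before, 8 weeks against 24 h), and neighbour counts from 6 to 16, from 5 to 10 and from 3 to 10. The difference in the Ash2l share ranged from 13.9 to 34.5 percentage points.

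Same-numbered libraries did not deviate together (correlations from −0.13 to 0.28, and 1 of 12 best with its own number). This gave no sign that the numbers pair the samples, and weak correlations cannot exclude a pairing. With the replicate block, 1312 genes were called at 24 h against before and 1661 at 8 weeks against 24 h, 5 of the 30 neighbours at 8 weeks against before and 4 at 24 h against before. Under the block Kcnu1 (3.00, adjusted p = 0.091) and Eif4ebp1 (1.44, adjusted p = 0.070) at 24 h against before and Bag4 at 8 weeks against before (0.55, adjusted p = 0.068) were not called. Depth limits Kcnu1 before TAM (25 to 370 reads) and at 8 weeks (38 to 71 reads), and Letm2 (46 to 288 reads).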
